A study of Homo sapiens with 5 samples.

Results

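FTH1 and FTL encode the heavy and light chains of ferritin, the hollow protein shell in which cells store iron. These 2 genes were examined in an NRF2 chromatin immunoprecipitation and sequencing (ChIP-seq) study of BEAS-2B cells, an immortalised line of human bronchial epithelial cells. All cells were of this 1 line and were treated for 5 h: 2 samples received 10 µM D,L-sulforaphane (SFN) and were precipitated with a rabbit monoclonal antibody against NRF2, 2 received 0.1% DMSO as vehicle and the same antibody, and 1 vehicle sample was precipitated with rabbit IgG. The deposited values are peaks in hg19 coordinates, given as 1 list for each treatment, and they hold nothing from which a spread between samples could be taken. A peak was taken as a member when its summit lay in chr11:61725000-61750000, which holds FTH1 (minus strand, start near 61735132), or in chr19:49460000-49480000, which holds FTL (plus strand, start near 49468566). By this rule 2 of the 1925 SFN peaks and 1 of the 2199 vehicle peaks were members. The genes were proposed for study with earlier results of these data known.

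Ferritin heavy chains carry the ferroxidase site that oxidises ferrous iron on entry, and light chains favour the formation of the mineral core. Synthesis of both chains is held back in iron-poor cells by iron regulatory proteins, which bind an element in the 5′ untranslated region of the mRNAs. Transcription of both genes is also known to respond to oxidants and electrophiles. NRF2 is released from its repressor KEAP1 when compounds such as sulforaphane modify that protein, and it then binds antioxidant response elements together with small MAF proteins.

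In the SFN list, each ferritin gene had a single peak, and both lay upstream of the gene. The FTH1 peak spanned chr11:61739292-61739675, with its summit 4372 bp upstream of the start and its nearer edge 4160 bp upstream. The FTL peak spanned chr19:49467062-49467394, with its summit 1358 bp and its nearer edge 1172 bp upstream. Neither peak therefore reached its gene start. In the vehicle list, FTH1 had 1 peak, chr11:61739466-61739619, with its summit 4373 bp upstream, and FTL had none.

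**Figure D1:**
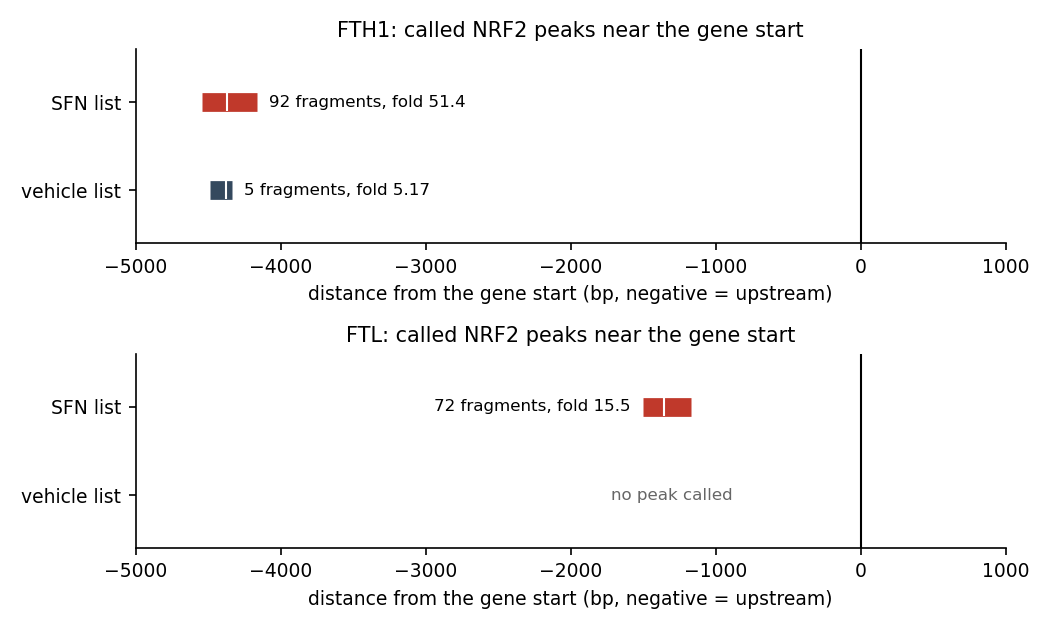
Positions of the called peaks relative to the start of FTH1 (top) and FTL (bottom), in bp along the direction of transcription, with a white tick at each summit and the gene start at 0. The FTH1 peaks of both lists lie at the same place about 4372 bp upstream, and FTL has a peak in the SFN list alone.

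RefSeq (GRCh38.p14) names 27 FTH1 and 20 FTL pseudogenes, and their part in the tags placed at the peaks was not tested. In the same annotation the next coding gene on the upstream side is INCENP for FTH1 and BAX for FTL, and BEST1 and the non-coding LOC399900 overlap FTH1. Whether the peaks fall in an exon or intron of any transcript was not determined here, because no hg19 annotation was used.

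The sequence under the peaks was not used here. The proximal promoter of FTL is shown because the SFN peak ends upstream of it and no peak of either list was called in it. The 250 bases before the FTL start, from RefSeq in GRCh38.p14 (chr19:48965059-48965308, plus strand), read 5′ to 3′:
FTL: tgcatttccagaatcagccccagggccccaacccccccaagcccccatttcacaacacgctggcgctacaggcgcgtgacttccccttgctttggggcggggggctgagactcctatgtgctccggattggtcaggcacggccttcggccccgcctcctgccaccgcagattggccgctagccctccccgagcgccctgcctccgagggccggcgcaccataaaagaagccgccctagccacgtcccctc
The core of the antioxidant response element, TGACNNNGC, was searched on both strands, as was the AP-1 site TGANTCA, and neither was found in these bases, so no letter is in capitals. Of 35116 RefSeq promoters of the same length, 10.9% held the first and 6.57% the second. The sequence is rich in G and C, at 67.6%. No match says only that these letters are absent from this window.

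At FTH1, NRF2 signal was higher in the SFN list, also after scaling by depth. The pileup, which is the number of sequenced fragments stacked over the summit, was 92 with SFN and 5 with vehicle, with exact 95% Poisson intervals of 74.2 to 113 and 1.62 to 11.7. These intervals, like all intervals here, cover counting error alone. The lists rested on unequal depth: 7448599 SFN tags and 1459665 vehicle tags were kept after duplicates were removed, a ratio of 5.10. Per 1000000 kept tags, the FTH1 pileup was 12.4 (9.96 to 15.1) with SFN and 3.43 (1.11 to 7.99) with vehicle. The intervals did not overlap. The SFN value was 3.61 times the vehicle value, with an exact 95% interval of 1.49 to 11.4. At equal occupancy and equal efficiency of the precipitations, the SFN height would correspond to 18.0 fragments (14.5 to 22.1) at the vehicle depth, against the 5 that were stacked there. This ratio compares 2 lists and not replicated conditions, so it has no replicate check and no p is given.

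At FTL, the SFN pileup was 72 (exact 95% Poisson interval 56.3 to 90.7), or 9.67 per 1000000 kept tags (7.56 to 12.2). At the same occupancy and equal efficiency of the precipitations, the vehicle depth would give 14.1 fragments (11.0 to 17.8). At the local control level of this place, 6 fragments would pass the weakest p of the vehicle list. No vehicle peak was narrower than the fragment length of 154 bp, so a taller but narrow stack could still be missed. The lowest of the 60 vehicle peaks at a control level 8 to 10 times the genome average had 7 fragments and their median was 11.5. The nearest vehicle peak to the FTL start lay 440542 bp downstream, at chr19:49909025-49909178, with 4 fragments. NRF2 signal at FTL below the height of a call was not measured in the vehicle list, whose depth limits what its empty window can show.

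**Figure D2:**
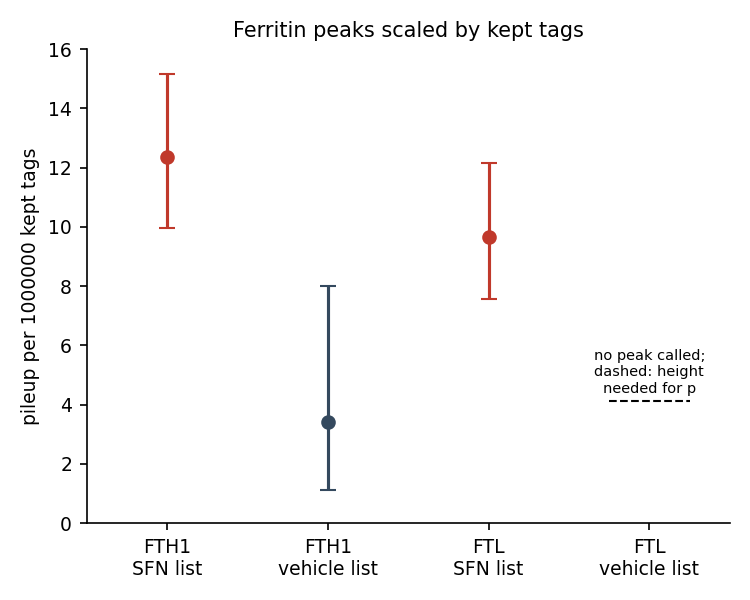
Pileup per 1000000 kept tags at the ferritin peaks of each list, with exact 95% Poisson intervals as bars that cover counting error alone; the dashed line marks the height at which FTL would pass the weakest p of the vehicle list (4.11 per 1000000). FTH1 stands at 12.4 with SFN and 3.43 with vehicle, and FTL at 9.67 with SFN.

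The FTH1 peak is shared by the lists and the FTL peak is not. The height that would pass the weakest p of the vehicle list was 4 fragments at FTH1 and 6 at FTL. A stack of 5 fragments, as called at FTH1, would thus fall short of that p at FTL. Sharing means an overlap of at least 1 bp, and it held for 37.9% of all SFN peaks and 34.9% of all vehicle peaks. The vehicle FTH1 peak lay wholly within the SFN peak and covered 40.1% of it. Their summits were 1 bp apart, against a median of 38 bp over the 730 shared SFN peaks, of which 67 had summits at most 1 bp apart.

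How common sharing was depended on the local control, the level around a peak of the control library, whose name carries both input and IgG, as the caller took it. At FTH1 it was 1.92 times the genome average in both lists, and at FTL 8.78 times in the SFN list. Among SFN peaks under 3 times the genome average, where FTH1 lies, 3.72% were shared. From 3 to under 10 times, where FTL lies, 23.9% were shared. In that range FTL had rank 8 in height of 285 peaks, and 6 of the 7 taller ones were shared. These shares describe the lists and single out neither gene.

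**Figure D3:**
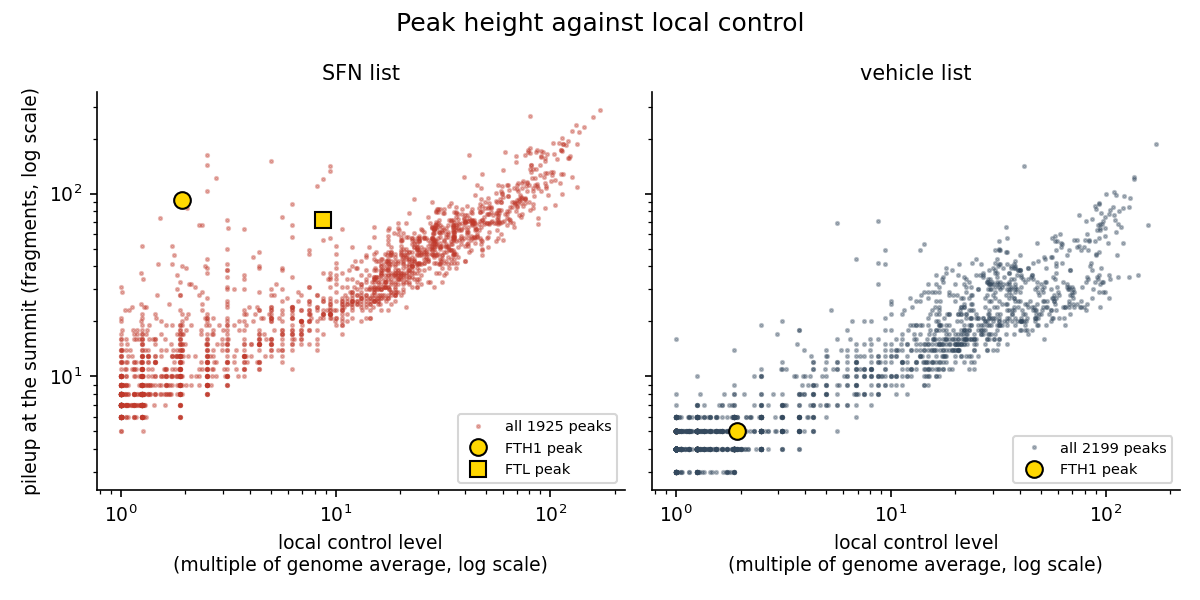
Pileup at the summit against the local control level (multiple of the genome average) for every peak of the SFN list (left) and the vehicle list (right), both axes logarithmic, with the ferritin peaks as large symbols. In the SFN list FTH1 (92 fragments at 1.92) and FTL (72 at 8.78) lie above most peaks of like control level, and in the vehicle list FTH1 (5 fragments) lies among many peaks of the same height.

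Within the SFN list, FTH1 stood near the top by enrichment. Its fold over the local control, the authors' value for each peak, was 51.4, which is rank 4 of 1925 peaks and rank 1 of the 74 on chromosome 11. The list median was 5.12. By −log10 p, at 153, it had rank 7. By height alone it had rank 130, and 125 of the 129 taller peaks lay at a control level of 3 or more. Among the 725 SFN peaks at a control level under 3, it had rank 4 by fold and rank 5 by height, and the median height there was 9 fragments.

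FTL had a fold of 15.5 in the SFN list, which was rank 58 of 1925 and rank 2 of the 54 peaks on chromosome 19. Its −log10 p was 65.7, at rank 32. By height it had rank 230. Among the 1195 SFN peaks that overlap no vehicle peak, FTL had rank 36 by fold, 37 by height and 12 by −log10 p. Of the 36 taller peaks in that set, 1 lay at a control level under 3.

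The 2 ferritin peaks of the SFN list differed more in fold than in height. The fold at FTH1 was 3.31 times that at FTL, while its pileup was 1.28 times as high, with an exact 95% interval of 0.928 to 1.76. The heights were thus not distinguishable beyond counting error. The local control was 4.58 times higher at FTL than at FTH1, at 3.71 against 0.810 fragments. The fold divides by this level plus 1, so the divisors of the 2 peaks differ by less than 4.58 times.

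Over the whole vehicle list the FTH1 peak was somewhat below the median by height and by fold. Its fold of 5.17 was rank 1348 of 2199 and lay below the list median of 5.44. Its height of 5 lay below the list median of 6 and equalled the median of the 1206 vehicle peaks at a control level under 3. Among those 1206 peaks it had rank 567 by fold and rank 153 by height, with ties given the best rank. It was 154 bp wide, the shortest width in that list and shared by 978 of its peaks, against 384 bp in the SFN list. Its −log10 q was 3.68, so it would not be called at a q of 1e-05.

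Among shared peaks, the SFN to vehicle ratio in height at FTH1 was rank 2. Each of the 730 shared SFN peaks was set beside the overlapping vehicle peak with the nearest summit, and the pileup per kept tag was compared. The ratio of SFN to vehicle had a median of 0.437 and quartiles of 0.353 and 0.563, and it was above 1 at 2.19% of these peaks. This side of 1 depends on the scaling. With the same heights, which exclude duplicates, divided by all sequenced tags, the median was 1.10 and 58.2% of the peaks were above 1. The change of scaling multiplies every ratio by the same factor, so FTH1 necessarily stayed at 8.25 times the median. Per kept tag FTH1 stood at 3.61, and only 1 of the 730 was higher. That ratio, 4.07, was at chrX:153770066-153770614. Per kept tag, 6 ratios exceeded 2, and 5 of those lay at a control level under 3, where 33.3% of the 27 shared peaks had a ratio above 1 and the median was 0.661. At the 703 peaks with a higher control, the median was 0.434 and the highest ratio 2.48. A peak enters this comparison only if it was called in the shallow vehicle list, which selects peaks that are high there.

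**Figure D4:**
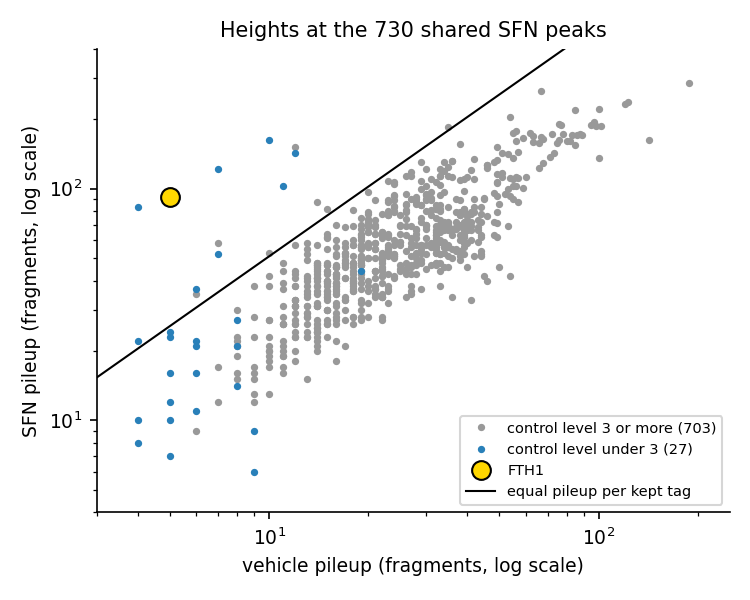
SFN pileup against vehicle pileup (fragments, both axes logarithmic) at the 730 SFN peaks that overlap a vehicle peak, by local control level, with a line where the pileup per kept tag is equal. FTH1 (92 against 5) lies above the line, while most shared peaks lie below it; with all sequenced tags in place of kept tags, 58.2% would lie above.

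The places most like FTH1 in height were found among the low-control shared peaks by the distance of their log2 pileup in the 2 lists. The nearest was chrX:153770066-153770614, with 83 fragments with SFN and 4 with vehicle. The next was chr16:69760632-69761102, with 122 and 7, a ratio per kept tag of 3.42 (exact 95% interval 1.61 to 8.67). The third was chr4:8305274-8305663, with 52 and 7 and a ratio of 1.46 (0.659 to 3.80). The interval at the X chromosome place was 1.53 to 15.3, so the counting error of these ratios overlaps that at FTH1 and gives no order among them. The ratio is made of the same heights by which the places were picked, so a likeness in ratio to FTH1 comes in part from that choice.

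Both ferritin peaks stood alone. The nearest other SFN peak to that at FTH1 lay 869591 bp away, at chr11:62609018-62609200 with 15 fragments, and the nearest to that at FTL lay 1019270 bp away, at chr19:48447806-48448179 with 18. In the vehicle list the next peak to FTH1 was 1461339 bp away and had 4 fragments. Neither gene thus belonged to a cluster of peaks in either list.

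Removal of duplicates bears on these heights. With 1 tag kept per position on each strand and fragments of 153 bp, at most 306 fragments can cover a base in the SFN list. FTH1 reached 30.1% of this ceiling and FTL 23.5%. In the vehicle list, where the ceiling is 308, FTH1 reached 1.62%. Of the sequenced tags, 32.3% were kept with SFN and 12.8% with vehicle. With the same heights scaled by all sequenced tags in place of kept tags, the FTH1 ratio was 9.07 (3.75 to 28.6). This scaling raises every ratio by the same factor, so the direction could not change. Heights with duplicates included were not available.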

How the data were processed

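NRF2 ChIP-seq peaks of BEAS-2B cells were analysed from 2 deposited lists. The submitters' processing notes name CASAVA 1.4, BWA, MACS2 and build hg19. Per the file headers, MACS 2.1.0.20140616 called each list from 1 treatment alignment against 1 control whose name carries input and IgG, at a q cutoff of 0.05. The sources used here say neither whether replicates were pooled first nor whether they came from separate cultures. The deposited signal is the pileup at the summit, not scaled to depth. The fold is a ratio the authors deposited, pileup plus 1 over local control plus 1, and the −log10 p and q values are also as deposited.

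The local control was computed back from fold and pileup, and a Poisson upper tail on it gave back the deposited −log10 p of every peak of both lists within 0.0001. It was divided by the genome average, 0.422 fragments for SFN and 0.0833 for vehicle. Windows and gene starts came from the rule that defines the members. Ratios have exact binomial intervals given the sum of both heights. The headers give 23090154 SFN and 11377334 vehicle tags sequenced and 28125771 kept control tags. Python 3.11.15 and SciPy 1.17.1 were used, and overlap and interval code was tested on simulated data. Named peaks are all members, the nearest peak where a window holds none, and the 3 most alike shared peaks; neighbouring and highest-ratio peaks were added after values were seen. Members and lists were chosen with earlier results of these data known. A list of other iron genes was not analysed, as no hg19 annotation was used. The promoter table held FTL; FTH1 is named only. The control level of 3 that splits the peaks was picked with the values in view. The IgG sample entered no analysis by itself.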

Additional observations from a re-analysis of the deposited data

How the results depend on the processing

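Of 18 alternative settings, 12 left the values within 1.5 times, or within the counting interval for the FTH1 ratio. Several of the 12 could not have lowered a count or worsened a rank, as given below, so this share does not measure stability. The 2 SFN peaks stayed 2 at a q of 1e-05 or less, within 50 kb on either side of the gene starts, and when any base had to lie in the window. The last 2 of these settings take in all that the windows hold, so they could only have added peaks. Under that stricter q, the vehicle peaks in the ferritin windows went from 1 to 0 and the shared ferritin peaks from 1 to 0, since the vehicle FTH1 peak is weaker than that. Overlap of 50% of the shorter peak, or summits at most 100 bp apart, kept FTH1 shared. Both outcomes follow from the vehicle peak lying wholly within the SFN peak, with summits 1 bp apart. The rank of FTH1 in the SFN list, 4 by fold, was 130 by pileup and 7 by −log10 p, and stayed 4 among peaks at a control level under 3. That subset contains FTH1, so its rank by fold could not have worsened there. Scaled by total tags, a setting added after seeing the data, 425 in place of 16 of the 730 shared peaks had a ratio above 1. The FTH1 ratio was 3.69 with the local control subtracted. Its rank of 2 among shared peaks held with the tallest overlapping vehicle peak and among low-control peaks. Neither setting could have worsened this rank. FTH1 overlaps a single vehicle peak, so a taller choice lowers only other ratios, and the higher ratio also lies at low control. Both settings were chosen after seeing the data, as was the genome average as control at FTL. With that control, 3 fragments in place of 6 would pass the weakest p. No paired analysis was possible because the peaks of a treatment come as a single list without sample columns, and for the same reason no replicate could be left out. The 5 vehicle fragments at FTH1 set the width of its interval.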
